A study of Mus musculus with 6 samples.

Results

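De novo fatty acid synthesis, the making of long-chain fatty acids from acetyl-CoA in the cytosol, was followed through 10 genes: Slc25a1, Acly, Acaca, Acacb, Fasn, Thrsp, Elovl6, Scd1, Scd2 and Me1. They were named by symbol as the pathway's enzymes and partners, with earlier results of these data known, and each symbol matched 1 of the 35122 genes in the deposited table. RNA came from the floating adipocyte layer of collagenase-digested epididymal fat of male C57BL/6 mice on a chow diet, with 1 library per mouse and 3 mice per genotype. Control mice were PU.1 fl/fl littermates, and aPU.1KO mice were PU.1 fl/fl that also carried Adipoq-Cre, so that exon 5 of Spi1, the gene of the transcription factor PU.1, is floxed in both genotypes and is the target of Cre in cells that use the adiponectin promoter. All mice were 10 to 11 months old by their labels, whereas the study's text gives a greater age. Cells in this layer that do not use that promoter are not a target of the Cre. In such bulk RNA, fewer cells of a type and less RNA per cell cannot be told apart. Fold changes are aPU.1KO over control on the log2 scale.

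In this pathway citrate leaves the mitochondrion through the carrier encoded by Slc25a1, and ATP citrate lyase (Acly) splits it into acetyl-CoA. The acetyl-CoA carboxylases (Acaca and Acacb) make malonyl-CoA, fatty acid synthase (Fasn) builds palmitate from it, Elovl6 lengthens palmitate and the stearoyl-CoA desaturases (Scd1 and Scd2) put in a double bond. Malic enzyme 1 (Me1) supplies NADPH, and Thrsp, also called Spot 14, is a nuclear protein whose RNA follows lipogenic conditions. In fat cells these genes are known to respond to insulin and carbohydrate through SREBP-1c and ChREBP.

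The libraries held between 20550252 and 69283842 counts, and control library 1 was the deepest. Spi1 was counted at 24.3, 6.35 and 26.7 CPM (counts scaled to library size with TMM factors) in control mice 1, 2 and 3 and at 3.20, 1.22 and 4.17 CPM in aPU.1KO mice 1, 2 and 3. Every aPU.1KO library lay below every control library, with a log2 fold change of -2.75 (SE 0.64, adjusted p = 0.0788 with edgeR and 0.000115 with DESeq2). Gene-level counting also takes in reads of the Spi1 exons that are not floxed. Control library 2 stood apart from the other controls. Its 15 macrophage markers, such as Adgre1, Lyz2 and Mpeg1, summed to 524.5 CPM against 1892 and 1814 CPM in controls 1 and 3, and to between 224.9 and 355.8 CPM in aPU.1KO. None of the 15 was at 0 in all libraries, and 13 were lower in every aPU.1KO library than in every control library. The 12 mature adipocyte markers summed to 30772 to 33697 CPM in control against 37073 to 43953 CPM in aPU.1KO libraries, so the labelled cell type was present in all 6, and 8 of these markers were higher in every aPU.1KO library. Lep, the gene of the hormone leptin and also 1 of the 12, went the other way, with 4674, 4551 and 5029 CPM in control against 2855, 1565 and 3949 CPM in aPU.1KO (log2 fold change -0.77, SE 0.32, edgeR adjusted p = 0.188).

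The RNAs of fatty acid synthesis were abundant in both genotypes, and 9 of the 10 had a fold change above 0. Together the 10 genes took 3.51%, 5.61% and 2.32% of all counts in controls 1, 2 and 3 and 5.28%, 5.87% and 4.90% in aPU.1KO mice 1, 2 and 3. Control library 2 lay within the aPU.1KO range, and most of each share was Scd1. Scd1 had the largest count of any gene in all 6 libraries, with 1.68% to 4.61% of the counts in control and 3.88% to 4.27% in aPU.1KO.

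Levels between genes were compared per kilobase of exon. Scd1 stood first at 5940 ± 3158 CPM per kilobase (SD, n = 3) in control and 8631 ± 839 in aPU.1KO. Fasn followed at 408.7 ± 123.9 and 742.7 ± 250.3, then Thrsp at 224.4 ± 67.3 and 507.3 ± 143.5. In controls, Thrsp and Me1 (221.3 ± 14.8 CPM per kilobase) did not differ beyond their spread, nor did Slc25a1 (141.1 ± 7.72) and Scd2 (135.1 ± 39.2). Acly had 76.9 ± 13.97 CPM per kilobase in control and 186.5 ± 57.1 in aPU.1KO, which moved it from the seventh place to the sixth, above Scd2 at 125.6 ± 24.8. Acaca, Elovl6 and Acacb were the lowest of the 10 in control, at 31.8 ± 10.7, 10.5 ± 2.14 and 6.11 ± 2.04 CPM per kilobase. Exon length here is the union of all annotated exons, and these levels depend on it. Over the longest transcript, Acaca was at 57.0 CPM per kilobase in control and stood above Scd2 in aPU.1KO (128.2 against 125.8), and Slc25a1 was at 183.3 in control against 135.3 for Scd2.

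**Figure D1:**
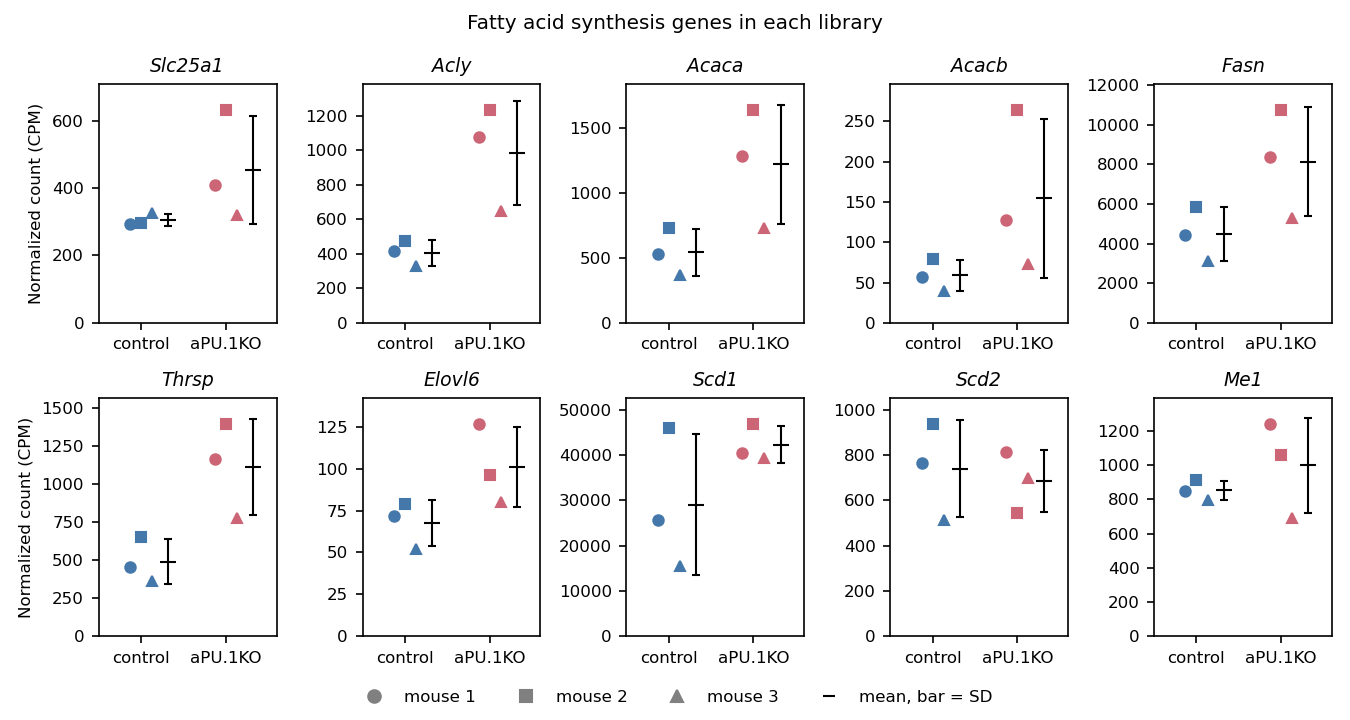
Normalized counts (CPM, vertical axis from 0) of the 10 fatty acid synthesis genes in the 3 control and the 3 aPU.1KO libraries; points are mice, black bars the mean and SD, and mouse numbers do not pair the groups. The 3 aPU.1KO points lie above all 3 control points for Acly, Acaca, Thrsp and Elovl6, narrowly so for Acaca and Elovl6, and in most panels control mouse 2 is the highest control and aPU.1KO mouse 3 the lowest aPU.1KO.

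Over all 10 genes, 0 passed an adjusted p under 0.05 with edgeR, beside 33 of the 13925 genes tested (0.237%). At an unadjusted p under 0.05, 7 were higher and 0 lower in aPU.1KO, against a background of 11.9% of genes higher and 13.7% lower. The 7 became 3 without control mouse 3, where 1006 of 14021 genes passed on the higher side. They became 4 without control mouse 1 (582 of 14020 genes), aPU.1KO mouse 1 (1261 of 14287) or aPU.1KO mouse 2 (1420 of 14196). With the macrophage marker level as a covariate they became 0 (69 of 13925 genes). Libraries scaled on adipocyte markers gave 4 higher and 1 lower (Scd2), where 91 and 6630 of 13925 genes passed. DESeq2, the test named in the study's methods, called 5 of the 10 higher (Acly, Acaca, Acacb, Fasn and Thrsp) and 0 lower, while it called 4.69% of all genes higher and 8.73% lower. In 4 genes every aPU.1KO library lay above every control library, a pattern that 16.7% of genes had, and in 0 genes every one lay below, as in 15.5% of genes. The median log2 fold change of the 10 was 0.72, and that of all genes tested was 0.01. All 10 genes passed the filter on low counts, so no member is missing from these counts.

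The entry of carbon into the pathway held the member with the smallest p. Acly (ENSMUSG00000020917, GRCm38 chromosome 11, 100476353 to 100528000, minus strand) was counted at 418.5, 472.2 and 326.4 CPM in the controls and at 1074, 1232 and 648.6 CPM in the aPU.1KO mice. The groups did not overlap, with a log2 fold change of 1.28 (SE 0.26, edgeR adjusted p = 0.0764), and DESeq2 gave an adjusted p of 5.94e-05. Slc25a1 (ENSMUSG00000003528, chromosome 16, 17925223 to 17928219, minus strand) had 294.3, 297.2 and 324.6 CPM in control against 409.4, 631.2 and 319.1 CPM in aPU.1KO. Its controls lay close together, and aPU.1KO mouse 3 fell inside their range while the other 2 lay above it. The log2 fold change of Slc25a1 was 0.57 (SE 0.24, edgeR adjusted p = 0.191, DESeq2 adjusted p = 0.113), and it was 0.25 without aPU.1KO mouse 2.

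Both acetyl-CoA carboxylases were higher in aPU.1KO mice 1 and 2 than in any control. Acaca (ENSMUSG00000020532, chromosome 11, 84129672 to 84401651, plus strand), the cytosolic form, was counted at 530.2, 731.0 and 365.3 CPM in control against 1288, 1638 and 731.1 CPM in aPU.1KO. The lowest aPU.1KO value and the highest control value were thus nearly equal, and the log2 fold change was 1.17 (SE 0.35, edgeR adjusted p = 0.111, DESeq2 adjusted p = 0.00819). Acacb (ENSMUSG00000042010, chromosome 5, 114146535 to 114250761, plus strand), the form tied to the mitochondrial outer membrane, had 57.2, 79.3 and 40.1 CPM in control against 127.1, 263.9 and 72.5 CPM in aPU.1KO. aPU.1KO mouse 2 was the highest by far, and aPU.1KO mouse 3 lay below control mouse 2. The log2 fold change of Acacb, 1.39, was the largest of the 10 and also had the largest SE, 0.48 (edgeR adjusted p = 0.135, DESeq2 adjusted p = 0.0184). Without aPU.1KO mouse 2 it was 0.76.

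Fasn (ENSMUSG00000025153, chromosome 11, 120805846 to 120824547, minus strand) was counted at 4433, 5850 and 3139 CPM in control against 8377, 10738 and 5275 CPM in aPU.1KO. The groups overlapped only in that aPU.1KO mouse 3 lay below control mouse 2, and the log2 fold change was 0.86 (SE 0.33, edgeR adjusted p = 0.165, DESeq2 adjusted p = 0.0413). Thrsp (ENSMUSG00000035686, chromosome 7, 97412938 to 97417730, minus strand) had 457.8, 652.3 and 363.5 CPM in control against 1161, 1396 and 774.1 CPM in aPU.1KO. These values did not overlap and gave a log2 fold change of 1.18 (SE 0.28, edgeR adjusted p = 0.0825, DESeq2 adjusted p = 0.000855).

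The enzymes that act on the finished palmitate had smaller fold changes than Acly or Thrsp. Elovl6 (ENSMUSG00000041220, chromosome 3, 129532355 to 129638495, plus strand) was counted at 71.9, 78.7 and 52.2 CPM in control against 126.8, 96.4 and 79.9 CPM in aPU.1KO, a log2 fold change of 0.58 (SE 0.21, edgeR adjusted p = 0.150, DESeq2 adjusted p = 0.0773). The groups did not overlap, by a narrow margin between aPU.1KO mouse 3 and control mouse 2. Without aPU.1KO mouse 1, the highest, the log2 fold change of Elovl6 was 0.37. Scd1 (ENSMUSG00000037071, chromosome 19, 44394455 to 44407879, minus strand) had 25656, 45928 and 15595 CPM in control against 40506, 46907 and 39256 CPM in aPU.1KO. Here the controls spread far more than the aPU.1KO mice, and control mouse 2 lay among the latter. The log2 fold change of Scd1 was 0.54 (SE 0.41, edgeR adjusted p = 0.442, DESeq2 adjusted p = 0.339), and it was 1.02 without control mouse 2 but 0.23 without control mouse 3. Scd2 (ENSMUSG00000025203, chromosome 19, 44293674 to 44306864, plus strand) had 763.9, 938.2 and 512.5 CPM in control against 814.6, 544.5 and 699.1 CPM in aPU.1KO. It was the member with a fold change below 0, at -0.11 (SE 0.25, edgeR adjusted p = 0.816), and all aPU.1KO values lay inside the control range. Its sign turned when mouse 2 of either group was left out (0.096 for the control, 0.034 for the aPU.1KO mouse). Leaving out control mouse 3 gave -0.31, and leaving out aPU.1KO mouse 1 gave -0.26.

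Me1 (ENSMUSG00000032418, chromosome 9, 86581371 to 86695953, minus strand) was counted at 848.2, 910.4 and 796.4 CPM in control against 1241, 1058 and 693.3 CPM in aPU.1KO. aPU.1KO mouse 3 lay below every control and the other 2 above, with a log2 fold change of 0.23 (SE 0.21, edgeR adjusted p = 0.532, DESeq2 adjusted p = 0.580). Without aPU.1KO mouse 1 it was 0.029, and without aPU.1KO mouse 3 it was 0.43.

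Me1 is also the member whose sequence is shared most with other annotated genes: 36.9% of its 31-base words also occur in transcripts of another gene, 28.6% of all its words in Gm7049, a processed pseudogene on chromosome 13 (62813076 to 62814787, plus strand). Gm7049 was picked out after its values were seen. It was counted at 0.165, 0.219 and 0.198 CPM in control against 21.4, 21.1 and 11.2 CPM in aPU.1KO. It rose with a log2 fold change of 6.56 (SE 0.37, edgeR adjusted p = 0.00370), and had the smallest p of all genes tested. Leaving out control mouse 1 took it just over the threshold (log2 fold change 6.37 to 6.81 with 1 mouse left out, highest edgeR adjusted p = 0.0512). In raw numbers these were 12, 5 and 5 counts against 421, 467 and 236 counts, few beside the 14638 to 61595 counts of Me1. With both counted as 1 gene, the log2 fold change of Me1 was 0.25 (edgeR adjusted p = 0.486). How the reads were divided between Me1 and its copies was not tested. Acaca shares 33.5% of its words with other genes, mainly the processed pseudogene Gm5182, which had between 0.379 and 3.35 CPM in any library, and adding it left the fold change of Acaca at 1.17. Scd1, Scd2 and Elovl6 share between 6.52% and 8.18% of their words, Thrsp 0.561%, and Acly, Acacb, Fasn and Slc25a1 0%.

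**Figure D2:**
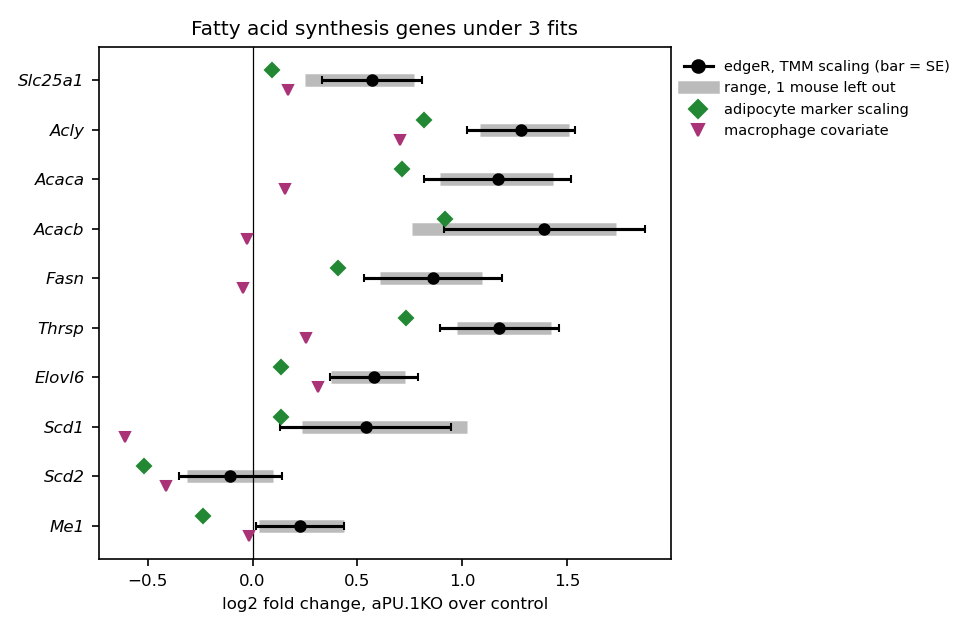
Log2 fold change of each gene, aPU.1KO over control (horizontal axis): black points and bars are edgeR estimates and SE with TMM scaling, grey bands the range when 1 mouse at a time was left out, green diamonds the estimate with libraries scaled on adipocyte markers, and purple triangles the estimate with the macrophage marker level as a covariate. Acly, Acaca, Acacb and Thrsp lie highest, between 1.17 and 1.39, and the covariate moves Acacb, Fasn, Scd1 and Me1 below 0.

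Promoter sequences were matched for 8 of the 10 members (RefSeq, GRCm38.p6), and not for Scd1 and Scd2. The 250 bases before each RefSeq start were searched on both strands for 4 short motifs. CCAAT, the letters bound by NF-Y, occurred in 5 of the 8 members (Fasn, Thrsp, Acacb, Slc25a1 and Me1) and in 33.8% of all 32851 promoter windows. The E-box CACGTG occurred in 1 member, Slc25a1, at 239 bases before the start, and in 6.02% of windows; it reads the same on both strands and is 1 site. The sterol response letters TCACNCCAC occurred in 0 of the 8 and in 1.05% of windows. The letters GAGGAAGT, which PU.1 can bind, occurred in 1 member, Elovl6, and in 2.44% of windows. The RefSeq starts of Acly, Fasn and Slc25a1 equal the start of the GENCODE gene, whereas those of Elovl6 and Thrsp lie 31 and 180 bases inside it and those of Acacb and Acaca 18983 and 65766 bases inside. Me1 has a start 39 bases and another 8676 bases inside, and its CCAAT belongs to the latter. All 120 bases printed for Thrsp, with both matches, therefore lie within the annotated gene, and starts outside the table were not searched. Printed 5′ to 3′ along the gene are the 120 bases before the RefSeq start of Acly and Thrsp, the members with the smallest p, and of Fasn, the central enzyme. Capitals mark CCAAT or its reverse complement, and in Fasn the CCAAT at 62 bases before the start and the reverse match at 59 bases overlap. For Elovl6, bases 200 to 81 before the start are given, with the reverse complement of the PU.1 letters, which begins 180 bases before the start, in capitals. These are matches of letters, with no binding measured.
Acly, chr11:100528001-100528120, minus strand: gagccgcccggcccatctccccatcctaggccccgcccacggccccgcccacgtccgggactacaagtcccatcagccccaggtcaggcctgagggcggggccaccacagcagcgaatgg
Thrsp, chr7:97417551-97417670, minus strand: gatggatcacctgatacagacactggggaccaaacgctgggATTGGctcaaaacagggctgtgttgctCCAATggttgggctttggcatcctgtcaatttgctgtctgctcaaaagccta
Fasn, chr11:120824548-120824667, minus strand: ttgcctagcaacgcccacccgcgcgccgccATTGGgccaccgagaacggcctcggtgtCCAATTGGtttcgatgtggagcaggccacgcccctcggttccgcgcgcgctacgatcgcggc
Elovl6, chr3:129532186-129532305, plus strand: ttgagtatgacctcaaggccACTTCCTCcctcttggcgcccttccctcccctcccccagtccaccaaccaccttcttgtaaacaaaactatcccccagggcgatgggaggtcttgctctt

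Among mice of 1 genotype, most of the 10 genes had the same order. Control mouse 2 had the highest control value in 9 of the 10 genes (42.3% of all genes tested), and control mouse 3 the lowest in 9 (40.6%). Slc25a1 was the exception in the first count, with its highest control value in mouse 3. Among the aPU.1KO mice, mouse 2 was highest in 7 genes (40.4% of all genes) and mouse 1 in 3 (27.4%), and mouse 3 was lowest in 9 (31.7%), with Scd2 lowest in mouse 2 instead. With each gene centred on its mean over the 6 libraries, the mean of the 10 genes was -0.36, -0.02 and -0.75 log2 CPM in controls 1, 2 and 3 and 0.51, 0.69 and -0.07 in aPU.1KO mice 1, 2 and 3. Control mouse 2 thus lay above aPU.1KO mouse 3. The macrophage markers ran the other way in part: their mean log2 CPM was 6.07, 4.58 and 5.71 in the controls and 3.80, 3.32 and 3.88 in aPU.1KO, lowest in mouse 2 of each group. The mean log2 CPM of the 12 adipocyte markers was 10.58, 10.82 and 10.57 in the controls and 11.15, 11.23 and 10.92 in aPU.1KO, with mouse 2 highest and mouse 3 lowest in each group, the order of the members' mean. The part of either marker list in the members' values was not tested.

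**Figure D3:**
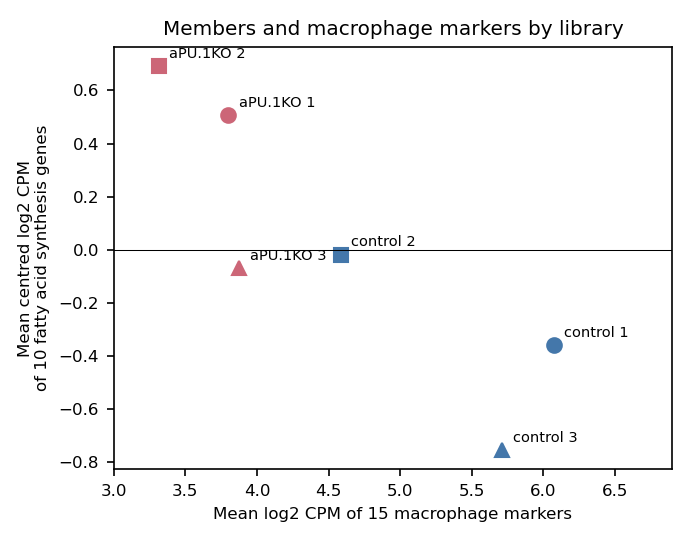
Each point is a library, with the mean log2 CPM of 15 macrophage markers on the horizontal axis and the mean centred log2 CPM of the 10 fatty acid synthesis genes on the vertical axis (controls blue, aPU.1KO red). The controls (4.58 to 6.07) and the aPU.1KO libraries (3.32 to 3.88) do not overlap on the horizontal axis, and control mouse 2 and aPU.1KO mouse 3 lie next to each other near 0 on the vertical axis.

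With that macrophage level as a covariate, the fold change of every member was lower. Acly was 0.70, Elovl6 0.31, Thrsp 0.26, Slc25a1 0.17 and Acaca 0.16, Scd2 moved further below 0 to -0.41, and the median of the 10 genes was 0.07. Fasn (-0.048), Acacb (-0.029), Scd1 (-0.61) and Me1 (-0.015) turned sign, and the adjusted p of every member was 0.999. The values of the covariate separate the genotypes completely, so that macrophage RNA and genotype cannot be told apart in this fit. The 11 progenitor and fibroblast markers were also lower, at 1815 to 2326 CPM in control against 991.4 to 1512 CPM in aPU.1KO, as were the 12 hepatocyte markers, at 49.1 to 73.4 CPM against 20.5 to 32.5 CPM, and the part of either was not tested. When the libraries were scaled to equal mean levels of the adipocyte markers, the median of all genes moved to -0.43 and that of the members to 0.27. The 12 markers used did not move alike. Before that scaling their log2 fold changes ran from -0.77 (Lep) to 1.71 (Cfd), with a median of 0.36. Under adipocyte marker scaling Acly (0.82) and Thrsp (0.73) passed an adjusted p under 0.05 with edgeR, and Me1 was at -0.23. Of all 13925 genes, 29 were then called higher and 3404 lower. Acacb (0.92), Acaca (0.71), Fasn (0.41), Scd1 (0.14), Elovl6 (0.14) and Slc25a1 (0.092) were smaller under this scaling as well, and Scd2 was further below 0 at -0.52. Acly and Thrsp also passed when control mouse 2 was left out, with log2 fold changes of 1.39 (edgeR adjusted p = 0.0430) and 1.42 (edgeR adjusted p = 0.0319), and the median of the 10 was then 1.06. In that fit edgeR called 202 genes higher and 991 lower of the 14306 tested.

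Ratios between genes within a library do not depend on its scaling, and 5 were compared. An exact permutation test of 3 against 3 libraries cannot give a two-sided p below 0.1. The ratio of Acly to Fasn, in counts per kilobase, was 0.196, 0.167 and 0.216 in control and 0.266, 0.238 and 0.255 in aPU.1KO, higher in all 3 aPU.1KO libraries by 0.40 on the log2 scale (exact permutation p = 0.1, adjusted p = 0.167 over the 5 ratios). Acly against Acss2, which makes acetyl-CoA from acetate, was 5.02, 4.78 and 4.98 in control and 6.52, 7.31 and 7.57 in aPU.1KO. Its controls differed by little, and the difference of 0.53 had the same exact p of 0.1 and adjusted p of 0.167. The level of this ratio rests on the exon length of Acss2: with the longest transcripts it was 2.13, 2.03 and 2.11 against 2.76, 3.10 and 3.20, with the same difference. Scd2 against Scd1 was 0.0267, 0.0183 and 0.0294 in control and 0.0180, 0.0104 and 0.0159 in aPU.1KO, a difference of -0.76 with the same exact p and adjusted p. Here the highest aPU.1KO library and the lowest control, mouse 2, nearly met. With limma on the 5 log2 ratios these 3 differences had adjusted p-values of 0.0466, 0.0149 and 0.0466, in the order given. Acacb against Acaca stood at 0.191, 0.192 and 0.195 in the controls and at 0.175, 0.286 and 0.176 in aPU.1KO, with 5 libraries close together and aPU.1KO mouse 2 apart from them (difference 0.10, exact permutation p = 1). With the longest transcripts its controls were at 0.117 to 0.119. Me1 against G6pdx, the first enzyme of the pentose phosphate pathway, overlapped between the groups (difference 0.21, exact permutation p = 0.6, adjusted p = 0.75), and the difference was 0.0055 without aPU.1KO mouse 2 and 0.50 without aPU.1KO mouse 3.

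**Figure D4:**
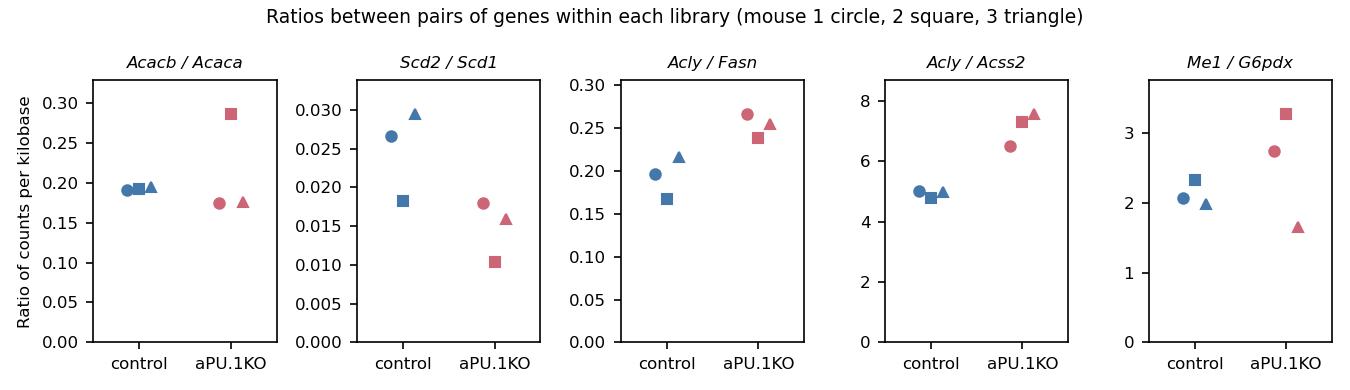
Ratio of counts per kilobase of exon between pairs of genes in each library (vertical axes from 0; controls blue, aPU.1KO red; mouse numbers do not pair the groups). The 3 aPU.1KO libraries lie above all controls for Acly to Fasn and Acly to Acss2 and below all controls for Scd2 to Scd1, and for Acacb to Acaca aPU.1KO mouse 2, at 0.286, stands apart from the other 5 libraries at 0.175 to 0.195.

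The genes around the pathway were taken from 6 lists, and edgeR called 0 of them at an adjusted p under 0.05. Their counts stand beside shares over all genes with an unadjusted p under 0.05 of 11.9% (higher) and 13.7% (lower), and shares called by DESeq2 of 4.69% and 8.73%, and the lists were not tested against each other. Of the 18 genes listed for acetyl-CoA and citrate supply, 13 reached an unadjusted p under 0.05 on the higher side and 0 on the lower. DESeq2 called 5 higher, and the median log2 fold change was 0.41. The list also holds Pdk1, Pdk2, Pdk3 and Pdk4, kinases that inhibit pyruvate dehydrogenase, and Pdk2 was among the 5. Mpc1, a subunit of the mitochondrial pyruvate carrier, had 189.5, 202.8 and 199.2 CPM in control against 378.0, 417.4 and 245.4 CPM in aPU.1KO, a log2 fold change of 0.82 (SE 0.19, edgeR adjusted p = 0.0796, DESeq2 adjusted p = 0.00207). The pyruvate dehydrogenase subunits Pdha1 and Pdhb had log2 fold changes of 0.66 and 0.63, and both passed with DESeq2. Acss2 was at 0.76 (edgeR adjusted p = 0.152) and did not pass with either tool.

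Of the 14 entries tested (15 listed, with Nnt under 2 identifiers) for cytosolic NADPH supply, 2 reached an unadjusted p under 0.05. Both were higher, a share near that of all genes, and the median was 0.13. The list is wider than its name: Me2, Me3 and Nnt act in mitochondria, and Tkt, Taldo1 and Mdh1 make no NADPH themselves. Transketolase (Tkt) stood out at 458.2, 491.3 and 441.0 CPM in control against 892.3, 1012 and 646.8 CPM in aPU.1KO. Its groups did not overlap, and the log2 fold change was 0.88 (SE 0.17, edgeR adjusted p = 0.0753, DESeq2 adjusted p = 9.24e-05). G6pdx was at -0.01, Idh1 at 0.22, Mdh1 at 0.36 and Taldo1 at 0.33, and none of these 4 passed with either tool. Without aPU.1KO mouse 2 Idh1 was at 0.14, Mdh1 at 0.20 and Taldo1 at 0.18.

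Of 16 genes of transcriptional control, an unadjusted p under 0.05 was reached by 4 higher and 1 lower, and the median was 0.07. DESeq2 called 4 higher: Mlxipl, Srebf1, Nr1h3 and Insig2. Mlxipl, which encodes ChREBP, had 41.6, 44.3 and 45.7 CPM in control against 58.6, 75.7 and 64.2 CPM in aPU.1KO, a log2 fold change of 0.60 (SE 0.11, edgeR adjusted p = 0.0724, DESeq2 adjusted p = 0.000450). Srebf1, which encodes SREBP-1, had 251.5, 288.1 and 255.2 CPM in control against 349.6, 481.0 and 363.7 CPM in aPU.1KO (log2 fold change 0.59, SE 0.14, edgeR adjusted p = 0.0830, DESeq2 adjusted p = 0.00441). For both, the groups were separate and the controls close together. Nr1h3, the gene of LXR alpha, was at 0.34 (DESeq2 adjusted p = 0.00290) and Ppargc1b at 0.40 (DESeq2 adjusted p = 0.329; 0.25 without control mouse 3 and 0.60 without control mouse 2), whereas Srebf2, the sterol-linked SREBP gene, was at -0.42 (edgeR adjusted p = 0.132).

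Among 11 genes that control acetyl-CoA carboxylase, 5 reached an unadjusted p under 0.05, all higher, and DESeq2 called 2 of them higher (median 0.15). These 2 were Mid1ip1 (0.73), a relative of Thrsp that promotes polymerization of the carboxylase, and Prkaa2 (0.48), a catalytic subunit of the AMP-activated kinase that inhibits it. Prkag2 was at 0.38 and Prkaa1 at 0.35, and neither passed with DESeq2. Of 17 tested genes (20 listed) of other elongation and desaturation steps, an unadjusted p under 0.05 was reached by 2 higher and 2 lower, again near the shares of all genes (median 0.05). DESeq2 called Hacd4, a dehydratase gene, lower, with a log2 fold change of -1.06 by edgeR (29.2, 15.2 and 25.8 CPM in the controls, 12.4, 8.41 and 12.98 CPM in aPU.1KO). With the macrophage covariate Hacd4 was at 0.23. DESeq2 called Cyb5a (0.32) higher, and Fads1 (0.30) and Hsd17b12 (0.28) passed with neither tool. Fads1 lay between 0.10 (control mouse 3 left out) and 0.47 (control mouse 2 left out), and was at 0.11 when aPU.1KO mouse 2 was left out. Mitochondrial fatty acid synthesis, a separate pathway that serves lipoate formation, had 5 of 9 genes higher at an unadjusted p under 0.05 and 3 called higher by DESeq2 (Mcat at 0.42, Cbr4 at 0.40 and Lias at 0.36), with Acsf3 at 0.38 (0.22 without aPU.1KO mouse 2) and a median of 0.27. Under adipocyte marker scaling, Nr1h3, Ppargc1b, Prkag2, Prkaa1, Mdh1, Taldo1, Idh1, Cyb5a, Fads1, Hsd17b12, Mcat, Cbr4, Acsf3 and Lias all turned below 0. Those that stayed above 0 were Mlxipl (0.15), Srebf1 (0.14), Mid1ip1 (0.27), Mpc1 (0.35), Tkt (0.41), Prkaa2 (0.044), Pdha1 (0.20), Pdhb (0.16) and Acss2 (0.30). With the macrophage covariate the latter were, in the same order, at 0.40, 0.17, 0.48, 0.49, 0.53, 0.021, 0.12, 0.32 and 0.15. Adipocyte marker scaling called 9 genes of the lists, all lower, among them Srebf2 (-0.88, edgeR adjusted p = 0.0186) and Hacd4 (-1.51, edgeR adjusted p = 0.0211). Of all 13925 genes tested it called 3404 lower and 29 higher.

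**Figure D5:**
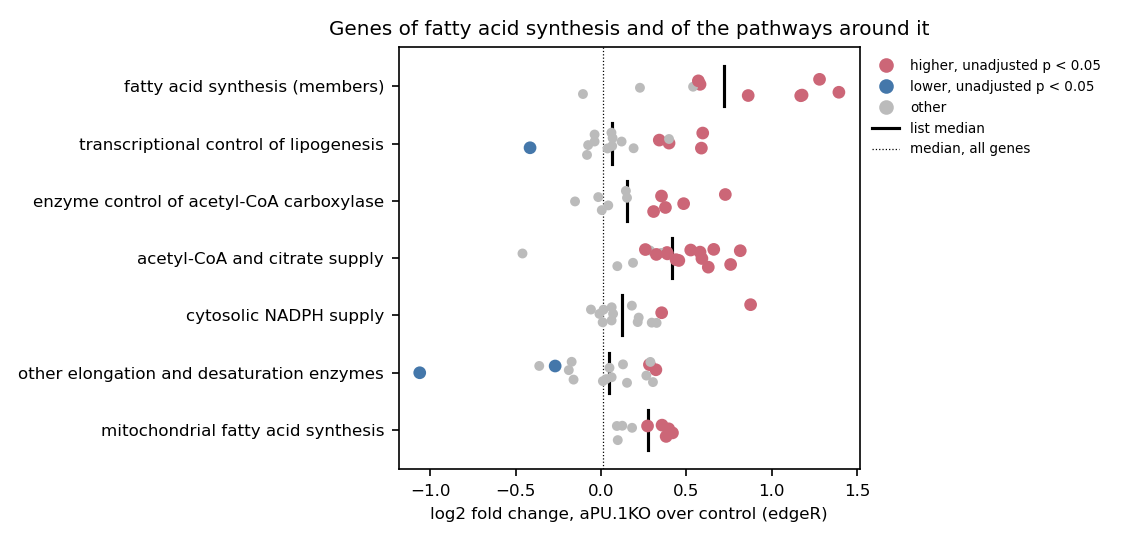
Log2 fold change (horizontal axis, aPU.1KO over control, edgeR) of the 10 fatty acid synthesis genes and of the tested genes of 6 lists around them; each point is a gene, coloured where its unadjusted p was under 0.05, and black bars are list medians. The median is 0.72 for the members, 0.41 for acetyl-CoA and citrate supply, and 0.27 or less for the other 5 lists, beside 0.01 for all genes (dotted line).

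Genes outside the 10 were ranked by how closely their centred log2 CPM over the 6 libraries followed the mean of the members, as a root mean square difference over 7675 genes. The 5 closest were Gpd2 (0.0576), the mitochondrial glycerol-3-phosphate dehydrogenase, Pygl (0.0941), a glycogen phosphorylase, Pde3b (0.105), the phosphodiesterase through which insulin restrains lipolysis, Tppp (0.113) and Acss2 (0.117). Of the members themselves, which enter the mean, Fasn lay closest to that mean (0.103) and Scd2 farthest from it (0.535). Gpd2 had 45.9, 61.0 and 37.0 CPM in control against 80.8, 98.1 and 61.3 CPM in aPU.1KO, with mouse 2 highest and mouse 3 lowest in each group.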

How the data were processed

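RNA of the adipocyte fraction was sequenced from 3 control and 3 aPU.1KO mice, grouped by genotype as labelled. Mouse numbers follow the labels' order within a genotype, and p-values measure the spread between these mice. The authors deposited estimated counts, from Salmon (validateMappings) with transcript counts summed to genes, without normalization. The values are whole numbers and were used as they are. Per the submitters' processing notes the build is GRCm38; the Salmon version and the annotation are not given in the sources used here. Of 35122 Ensembl identifiers, 35031 matched a symbol.

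Genes were filtered with filterByExpr, scaled by TMM and compared with edgeR 4.0.16 (quasi-likelihood test, Benjamini-Hochberg adjustment over 13925 genes) in R 4.3.3, with DESeq2 1.42.0 and limma 3.58.1 as alternatives. Total counts of 20550252 to 69283842 left the 10 members far above the filter, so the spread between mice limits precision. No libraries were duplicates (chi-square per degree of freedom 20.4 or more within groups). The pipeline was tested on simulated data. Gene lengths, positions and shared 31-base words came from GENCODE M21. The members and lists were chosen with earlier results of these data known. Named were all members, Spi1, from each pathway list the 4 tested genes with the largest absolute fold change above a mean log2 CPM of 1, Srebf1, Mlxipl, Nr1h3, G6pdx and Acss2, the 5 genes most like the members above a mean log2 CPM of 4, and marker genes that bear on a result. Log2 CPM used a prior count of 2. Alternatives were other scaling factors, filters and tests, a macrophage covariate, a thinned deep library, and leaving out each mouse. Adding pseudogene copies to their parent genes was chosen after seeing the data. Ratios were tested by exact permutation in Python 3.11.15 with scipy 1.17.1, and figures drawn with matplotlib 3.10.9.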

Additional observations from a re-analysis of the deposited data

How the results depend on the processing

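With 0 members called by edgeR, adipocyte marker scaling gave 2, DESeq2 5, and leaving out 1 mouse 0 to 2 (2 without control mouse 2). For all genes the 33 calls (8 higher, 25 lower) became 3433 with adipocyte marker scaling (29 higher, 3404 lower), 1869 with DESeq2 (653 higher, 1216 lower), 146 without a filter on low counts, 5 with at least 10 counts in every library, 21 with copies added to their parent genes, 0 with the macrophage covariate (at an unadjusted p under 0.05, 69 higher and 210 lower), and 0 to 1193 with 1 mouse left out (0 without control mouse 1, 1193 without control mouse 2). The 0 calls in the other pathway lists became 9 with adipocyte marker scaling (0 higher, 9 lower), 17 with DESeq2 (16 higher, 1 lower) and 0 to 5 with 1 mouse left out. Spi1, at -2.75, was at -3.20 with adipocyte marker scaling and -2.75 with DESeq2, both past the threshold, at 0.24 with the covariate, and between -3.17 and -2.39 with 1 mouse left out, where it passed in 1 of 6 fits (control mouse 2 left out, edgeR adjusted p = 0.0123). With limma the ratios of Scd2 to Scd1 (-0.76), Acly to Fasn (0.40) and Acly to Acss2 (0.53) passed, and Acacb to Acaca moved between -0.14 (aPU.1KO mouse 2 left out) and 0.22 (aPU.1KO mouse 1 left out).

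Under the covariate the sign turned for Acacb (-0.029), Fasn (-0.048), Scd1 (-0.61), Me1 (-0.015), Ppargc1b (-0.11), Prkag2 (-0.089), Fads1 (-0.31), G6pdx (0.24) and Hacd4 (0.23). Under adipocyte marker scaling, which moves the median of all genes to -0.43, it turned for Me1 (-0.23), Ppargc1b (-0.013), Nr1h3 (-0.11), Prkag2 (-0.065), Prkaa1 (-0.073), Mdh1 (-0.10), Taldo1 (-0.14), Idh1 (-0.24), Cyb5a (-0.11), Fads1 (-0.13), Hsd17b12 (-0.17), Mcat (-0.036), Cbr4 (-0.055), Acsf3 (-0.076) and Lias (-0.091). Scd2 turned to 0.096 when control mouse 2 was left out and to 0.034 when aPU.1KO mouse 2 was, and G6pdx (-0.01) moved between -0.12 and 0.12 with 1 mouse left out. Adipocyte marker scaling shifts all genes downward together, so small positive fold changes turn under it by arithmetic. The cause of the other changes was not tested. Acly, Acaca, Elovl6, Slc25a1 and Thrsp kept a fold change above 0 under all 18 alternatives, though Slc25a1 was as low as 0.092 and Elovl6 0.14 (adipocyte marker scaling), and Acaca 0.16 (covariate). No paired analysis was run. The study calls the controls littermates, but the labels give no litter or pair for any mouse. Any relatedness between mice is therefore not taken into account in these tests.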

Other observations

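The genes that edgeR called higher in aPU.1KO were few, and several lay near Me1 on the chromosome. Their positions were looked up after their values were seen. Of 8 called higher, 3 are processed pseudogenes (Gm7049, Gm8210 and Morf4l1-ps1), of 25 called lower 0 are pseudogenes, and of all 13925 genes tested 298 (2.14%) are pseudogenes of any kind. Another 3 of the 8 (Bckdhb, Gsta4 and Zfp949) lie within 10 Mb of Me1 on chromosome 9, a window that holds 73 of the genes tested (0.524%).

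Bckdhb, a subunit of the branched-chain keto acid dehydrogenase, lies 2457 kb from Me1 and was counted at 61.5, 63.6 and 64.4 CPM in control and 155.1, 146.7 and 124.5 CPM in aPU.1KO (log2 fold change 1.17, SE 0.10, edgeR adjusted p = 0.0174). Gsta4, a glutathione transferase gene 8372 kb away, had 10.9, 15.1 and 10.1 CPM in control and 64.2, 93.6 and 62.3 CPM in aPU.1KO (2.61, SE 0.22, edgeR adjusted p = 0.0174). Zfp949, 1852 kb away, had 8.99, 8.54 and 9.60 CPM in control and 18.8, 21.8 and 17.9 CPM in aPU.1KO (1.11, SE 0.12, edgeR adjusted p = 0.0324). With the macrophage covariate these 3 were at 1.09, 1.79 and 1.09, without passing the test, in a fit that cannot separate macrophage RNA from genotype. Morf4l1-ps1, on chromosome 16, went from 0.317, 0.131 and 0.635 CPM to 9.91, 13.3 and 14.5 CPM (5.13, SE 0.43, edgeR adjusted p = 0.0174), and 95.3% of its 31-base words occur in Morf4l1, which lies 3396 kb from Me1 and was at 0.05. For Gm7049, 65.3% of its words occur in Me1.

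Eif4a2, a translation initiation factor gene also among the 8, lies 32.4 kb from Adipoq on chromosome 16, the gene whose promoter drives Cre. It had 269.0, 295.4 and 265.6 CPM in control and 584.1, 555.3 and 483.2 CPM in aPU.1KO (log2 fold change 0.97, SE 0.10, edgeR adjusted p = 0.0324). Rfc4, on the other strand toward Adipoq, overlaps the end of Eif4a2, so that reads there may count for either gene. It had 5.54, 5.25 and 4.24 CPM in control and 7.979, 8.001 and 7.910 CPM in aPU.1KO (0.66, SE 0.15, edgeR adjusted p = 0.0786, DESeq2 adjusted p = 0.00805). The last of the 8, Tmem179 on chromosome 12, was at 1.39 (edgeR adjusted p = 0.04996). All 8 kept a positive fold change in every alternative that tested them, but their calls were less stable. All 8 lost the call under the macrophage covariate and without control mouse 1, where edgeR called 0 genes. With 1 mouse left out, Gm7049 and Gm8210 were called in 5 of 6 fits, Bckdhb, Gsta4 and Morf4l1-ps1 in 2, and Eif4a2, Zfp949 and Tmem179 in 1. Of 18 alternatives, Tmem179 was called in 7 and Eif4a2 and Zfp949 in 11. All aPU.1KO mice and no control carried Adipoq-Cre, so that the presence of this transgene, with whatever sequence came with it, and the deletion in Spi1 cannot be told apart as sources of these differences. Whether the reads counted at these genes came from the annotated loci, and why the genes differ, was not tested.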
